A study of Mus musculus with 9 samples.

Results

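The T cell receptor complex and T identity genes are 10 transcripts that mark T lymphocytes, here measured in whole mouse lung: Cd3d, Cd3e, Cd3g, Cd2, Cd4, Cd8a, Cd8b1, Lck, Foxp3 and Il7r. They were picked by gene symbol, and each symbol matched 1 of the 55359 genes in the deposited table. The lungs came from male C57BL/6J mice aged 6 to 8 weeks, sampled on day 28 after instillation. Silica + ATL-III mice received 5 mg of silica into the trachea and atractylenolide III, a plant sesquiterpene lactone, injected daily into the abdomen at 30 mg/kg. Silica mice received the same dose of silica, the dust that causes the lung fibrosis silicosis. Control mice received saline into the trachea. Each group held 20 mice and is represented by 3 poly(A) RNA libraries, so there were 9 in all. The labels do not say that a library is 1 mouse, so p-values cover only the variation among these 9 samples, some of which may be technical.

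T cells read antigen through a receptor whose variable chains cannot signal by themselves. The CD3 chains carry the signalling tails, which the kinase Lck phosphorylates, and the co-receptors CD4 and CD8 bind MHC molecules and bring Lck to the receptor. CD2 is an adhesion and costimulatory receptor of T and NK cells. FOXP3 is the transcription factor that defines regulatory T cells, and the interleukin 7 receptor alpha chain keeps naive and memory T cells alive and is also found on innate lymphoid cells.

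Depth was even, with 16047175 to 17792481 counts per library. Levels are FPKM, reads per exon length and library total. Of the 10 genes, 6 (Cd3d, Cd3g, Cd2, Cd8b1, Lck and Il7r) passed the filter of at least 1 FPKM in at least 3 libraries, and Cd3e, Cd4, Cd8a and Foxp3 did not. Values for those 4 come from a fit with a lower filter. The labelled tissue matched its markers. The summed level of 12 lung cell marker genes was 112174 to 121743 FPKM in Silica + ATL-III lungs and 95146 to 110086 FPKM in Control lungs. It was 66889 FPKM in Silica 1, lower than in any other library, 109112 FPKM in Silica 2 and 111394 FPKM in Silica 3. In whole tissue, fewer T cells and less RNA per T cell cannot be told apart.

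The 3 CD3 genes lie together on mouse chromosome 9, and their proximal upstream sequences are shown because the genes share 1 locus and 1 complex. In RefSeq (GRCm38.p6) Cd3g and Cd3d are transcribed away from each other from starts 1338 bases apart. Cd3e lies 11683 bases beyond the end of Cd3d. The windows are chr9:44980432-44980681 (minus strand) for Cd3g, chr9:44981536-44981768 (plus strand) for Cd3d and chr9:45009664-45009861 (minus strand) for Cd3e, each read 5′ to 3′ and ending at the gene's start or at the first base outside the annotated gene. Capitals mark matches, on either strand, to short core motifs of factor families active in T cells: ETS (AGGAAG), RUNX (TGTGGT), E-box (CAGGTG), TCF (CTTTGA), and AGATAA for the GATA family.
Cd3g: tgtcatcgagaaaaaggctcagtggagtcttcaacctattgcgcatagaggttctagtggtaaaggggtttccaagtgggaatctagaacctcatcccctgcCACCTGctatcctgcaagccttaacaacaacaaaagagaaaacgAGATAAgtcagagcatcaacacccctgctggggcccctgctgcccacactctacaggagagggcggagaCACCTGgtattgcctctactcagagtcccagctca
Cd3d: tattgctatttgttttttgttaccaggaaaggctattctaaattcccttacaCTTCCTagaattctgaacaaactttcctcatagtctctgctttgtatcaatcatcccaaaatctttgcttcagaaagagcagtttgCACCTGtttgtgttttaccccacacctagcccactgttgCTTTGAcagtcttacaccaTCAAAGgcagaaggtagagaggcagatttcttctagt
Cd3e: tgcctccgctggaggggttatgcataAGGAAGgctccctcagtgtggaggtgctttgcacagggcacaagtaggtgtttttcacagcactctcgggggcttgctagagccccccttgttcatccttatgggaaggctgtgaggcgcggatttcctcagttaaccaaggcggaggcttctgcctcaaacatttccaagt
Cd3g held an E-box in 2 places and 1 GATA match, Cd3d held ETS, E-box and TCF matches, and Cd3e held 1 ETS match. No marked matches overlap each other. Over all 32851 RefSeq windows of 250 bases, ETS letters were found in 29.5%, RUNX in 14.0%, E-box in 17.2%, TCF in 13.8% and GATA in 3281 windows, so each is common. Those windows were not cut at the gene, whereas the Cd3d and Cd3e windows shown were. Before the cut, the 250 bases of Cd3e held 2 ETS matches. A match is letters only, and these data hold no measurement of binding. RefSeq promoter entries were found for 7 of the 10 genes.

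**Figure D1:**
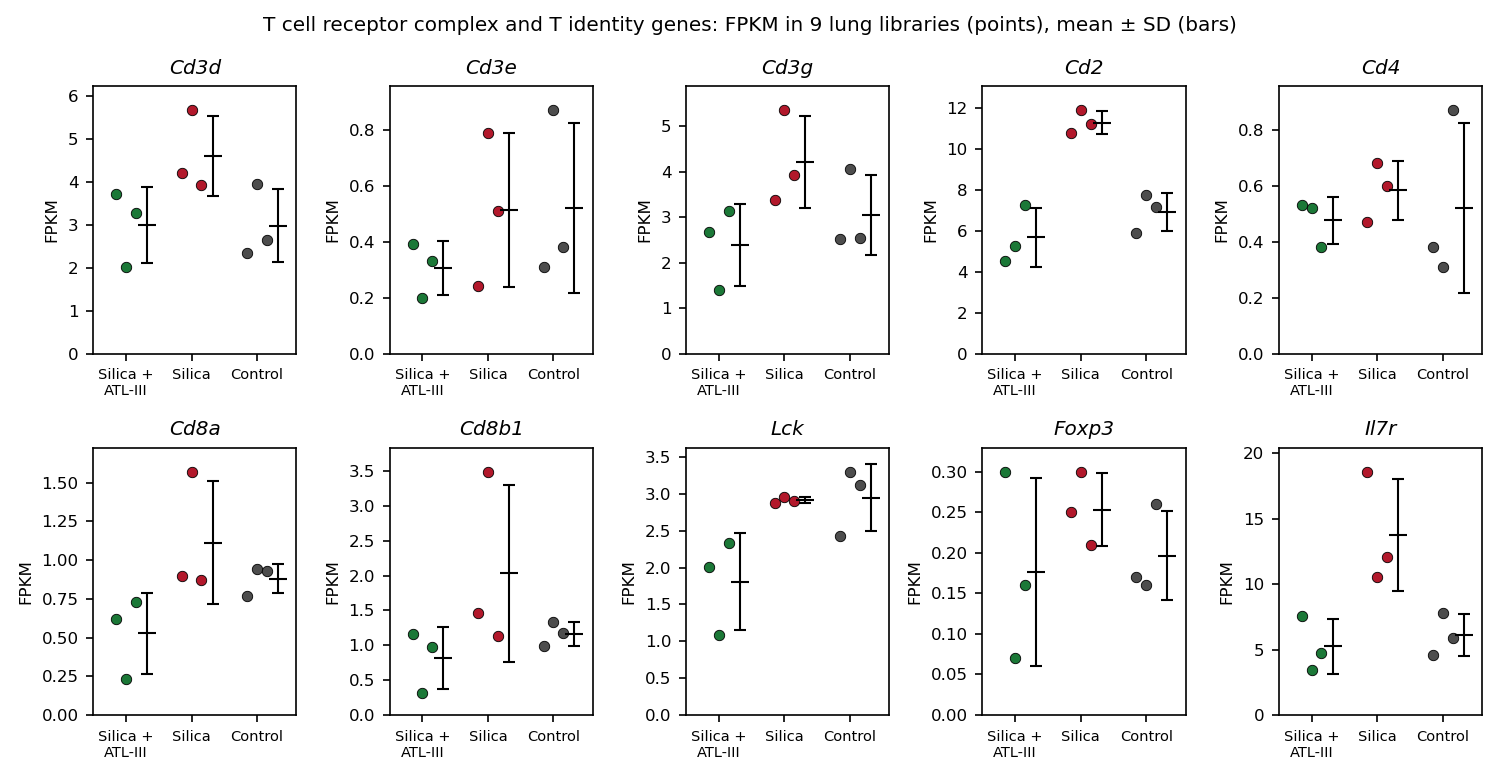
FPKM of the 10 genes in each of 9 lung libraries (points, in label order within a group), with the mean and SD of 3 libraries beside them; each panel has its own axis from 0. Cd2 and Il7r are the genes whose Silica libraries lie above all Silica + ATL-III and all Control libraries.

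Among the CD3 chains, Cd3d had 3.72, 2.01 and 3.27 FPKM in Silica + ATL-III lungs, 4.21, 5.67 and 3.93 FPKM in Silica lungs and 2.35, 3.95 and 2.65 FPKM in Control lungs. Cd3g had 2.67, 1.39 and 3.13 FPKM in Silica + ATL-III lungs, 3.38, 5.35 and 3.92 FPKM in Silica lungs and 2.51, 4.06 and 2.55 FPKM in Control lungs. For both genes every Silica library was above every Silica + ATL-III library, while Control 2 reached into the Silica range. Cd3e stood far lower on the same per-length scale, at 0.39, 0.20 and 0.33 FPKM in Silica + ATL-III lungs, 0.24, 0.79 and 0.51 FPKM in Silica lungs and 0.31, 0.87 and 0.38 FPKM in Control lungs. All 3 groups overlapped for Cd3e, and its level was 0.0995 to 0.105 of that of Cd3d in Silica + ATL-III lungs, 0.057 to 0.139 in Silica lungs and 0.132 to 0.220 in Control lungs. The table gives Cd3e an exonic length of 4080 bases and Cd3d one of 1815 bases, and 3.3% of the Cd3e exonic bases are shared with another annotated gene, Gm48719.

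The co-receptor genes were low. Cd4 had 0.53, 0.52 and 0.38 FPKM in Silica + ATL-III lungs, 0.47, 0.68 and 0.60 FPKM in Silica lungs and 0.38, 0.31 and 0.87 FPKM in Control lungs, so the Control libraries alone spanned the range of the other groups. The CD8 alpha chain gene Cd8a had 0.62, 0.23 and 0.73 FPKM in Silica + ATL-III lungs, 0.90, 1.57 and 0.87 FPKM in Silica lungs and 0.77, 0.94 and 0.93 FPKM in Control lungs. Each Silica + ATL-III library was below each library of the other groups for Cd8a. The CD8 beta chain gene Cd8b1 had 1.16, 0.32 and 0.98 FPKM in Silica + ATL-III lungs, 1.47, 3.49 and 1.14 FPKM in Silica lungs and 0.99, 1.34 and 1.17 FPKM in Control lungs. Its Silica mean rests on Silica 2, and the groups overlapped.

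Lck had 2.01, 1.08 and 2.34 FPKM in Silica + ATL-III lungs, 2.88, 2.96 and 2.90 FPKM in Silica lungs and 2.43, 3.30 and 3.12 FPKM in Control lungs. It was the gene with all Silica + ATL-III libraries below both other groups among those that passed the filter, and Silica and Control overlapped. Foxp3 was the lowest of the 10, at 0.30, 0.07 and 0.16 FPKM in Silica + ATL-III lungs, 0.25, 0.30 and 0.21 FPKM in Silica lungs and 0.17, 0.16 and 0.26 FPKM in Control lungs. That is 5 to 23 counts per library, and the groups overlapped. Of its exonic bases, 31.5% are shared with other annotated genes.

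Cd2 had 4.51, 5.25 and 7.27 FPKM in Silica + ATL-III lungs, 10.79, 11.89 and 11.20 FPKM in Silica lungs and 5.88, 7.73 and 7.16 FPKM in Control lungs. Il7r had 7.56, 3.46 and 4.70 FPKM in Silica + ATL-III lungs, 18.57, 10.52 and 12.07 FPKM in Silica lungs and 4.57, 7.76 and 5.90 FPKM in Control lungs. In both genes the Silica libraries stood above all 6 others, and the Silica + ATL-III and Control libraries overlapped. Of genes at the lower filter, 13.3% lay wholly higher in Silica than in Control. These were the most abundant of the 10 genes on the per-length scale, at 7.96 FPKM for Cd2 and 8.35 FPKM for Il7r over all libraries.

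Silica lungs were compared with Control lungs to see how dust exposure alone went with T cell transcripts. The quasi-likelihood test of edgeR, with p-values adjusted by Benjamini-Hochberg over all 15459 genes, called 2 of the 6 tested genes higher, Cd2 and Il7r, and none lower. In this comparison 9.11% of all genes tested were called higher and 7.81% lower (16.9% in all). Cd2 averaged 11.3 ± 0.6 FPKM in Silica lungs and 6.92 ± 0.95 FPKM in Control lungs (SD, n = 3 each), a log2 fold change of 0.81 ± 0.17 (SE; edgeR adjusted p = 0.0131). Il7r averaged 13.7 ± 4.3 FPKM in Silica lungs and 6.08 ± 1.60 FPKM in Control lungs, a log2 fold change of 1.29 ± 0.30 (edgeR adjusted p = 0.0158). The Cd2 call was lost without Control 1 (adjusted p = 0.0531), and the Il7r call without Silica 1 (0.0696), Control 1 (0.060) or Control 3 (0.059).

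The other genes did not pass in Silica against Control lungs. Log2 fold changes were 0.72 ± 0.26 for Cd3d (edgeR adjusted p = 0.0773), 0.57 ± 0.28 for Cd3g (0.178), 0.89 ± 0.47 for Cd8b1 (0.197) and 0.08 ± 0.24 for Lck (0.834). In the fit with the lower filter, where 14.3% of genes were called, they were 0.09 ± 0.46 for Cd3e (0.918), 0.28 ± 0.37 for Cd4 (0.638), 0.45 ± 0.36 for Cd8a (0.414) and 0.47 ± 0.46 for Foxp3 (0.515). DESeq2, which called 21.8% of all genes, called Cd3d as well. Over the 6 tested genes the median was 0.76, against -0.01 over all genes tested.

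Silica + ATL-III lungs were compared with Silica lungs to see how the compound went with the same transcripts after dust. Of the 6 genes tested, Cd2 and Il7r were again the ones called, now lower, where 10% of all genes tested were called lower and 11.2% higher (21.2% in all). Cd2 averaged 5.68 ± 1.43 FPKM in Silica + ATL-III lungs and 11.3 ± 0.6 FPKM in Silica lungs, a log2 fold change of -0.97 ± 0.18 (edgeR adjusted p = 0.00316). Il7r averaged 5.24 ± 2.10 FPKM in Silica + ATL-III lungs and 13.7 ± 4.3 FPKM in Silica lungs, a log2 fold change of -1.38 ± 0.30 (edgeR adjusted p = 0.00745). Both calls were kept in all 9 fits that left out 1 library, with adjusted p up to 0.0167 for Cd2 and 0.0333 for Il7r. This comparison and the preceding one share the Silica libraries, so opposite directions in them are not independent of each other.

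The remaining genes were lower in Silica + ATL-III lungs in their fitted values but missed the threshold. Log2 fold changes were -0.59 ± 0.26 for Cd3d (edgeR adjusted p = 0.128), -0.79 ± 0.29 for Cd3g (0.0701), -1.27 ± 0.48 for Cd8b1 (0.0797) and -0.67 ± 0.25 for Lck (0.0742). With the lower filter, where 19.4% of genes were called, they were -0.69 ± 0.48 for Cd3e (0.34), -0.26 ± 0.37 for Cd4 (0.665), -1.03 ± 0.37 for Cd8a (0.0693) and -0.52 ± 0.47 for Foxp3 (0.471). Cd3d, Cd3g, Cd2, Cd8a, Lck and Il7r had no overlap between groups, 6 of the 10 genes, where 18.9% of genes at the lower filter lay wholly lower. DESeq2, which called 24.5% of all genes, called 5 of the 6 tested genes, adding Cd3g, Lck and Cd8b1. EdgeR without Silica + ATL-III 3, which called 23.7% of all genes, called 4, adding Lck and Cd3g. Over the 6 tested genes the median was -0.88, against -0.0003 over all genes tested.

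Silica + ATL-III lungs were also compared with Control lungs. EdgeR called 0 of the 6 tested genes, where 15.9% of all genes tested were called (9.14% higher and 6.71% lower). DESeq2, which called 18.7% of all genes, also called 0, and Lck alone had an unadjusted p under 0.05. Log2 fold changes were -0.16 ± 0.18 for Cd2 (edgeR adjusted p = 0.581), -0.09 ± 0.30 for Il7r (0.868), 0.13 ± 0.27 for Cd3d (0.79), -0.22 ± 0.29 for Cd3g (0.653), -0.38 ± 0.50 for Cd8b1 (0.65) and -0.58 ± 0.25 for Lck (0.137). With the lower filter, where 14.5% of genes were called, they were -0.60 ± 0.48 for Cd3e (0.449), 0.02 ± 0.38 for Cd4 (0.979), -0.58 ± 0.38 for Cd8a (0.338) and -0.05 ± 0.48 for Foxp3 (0.965). Cd8a and Lck lay wholly lower in Silica + ATL-III lungs, where 29.3% of genes at the lower filter did so. A p that misses the threshold does not show that these lungs had equal levels.

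**Figure D2:**
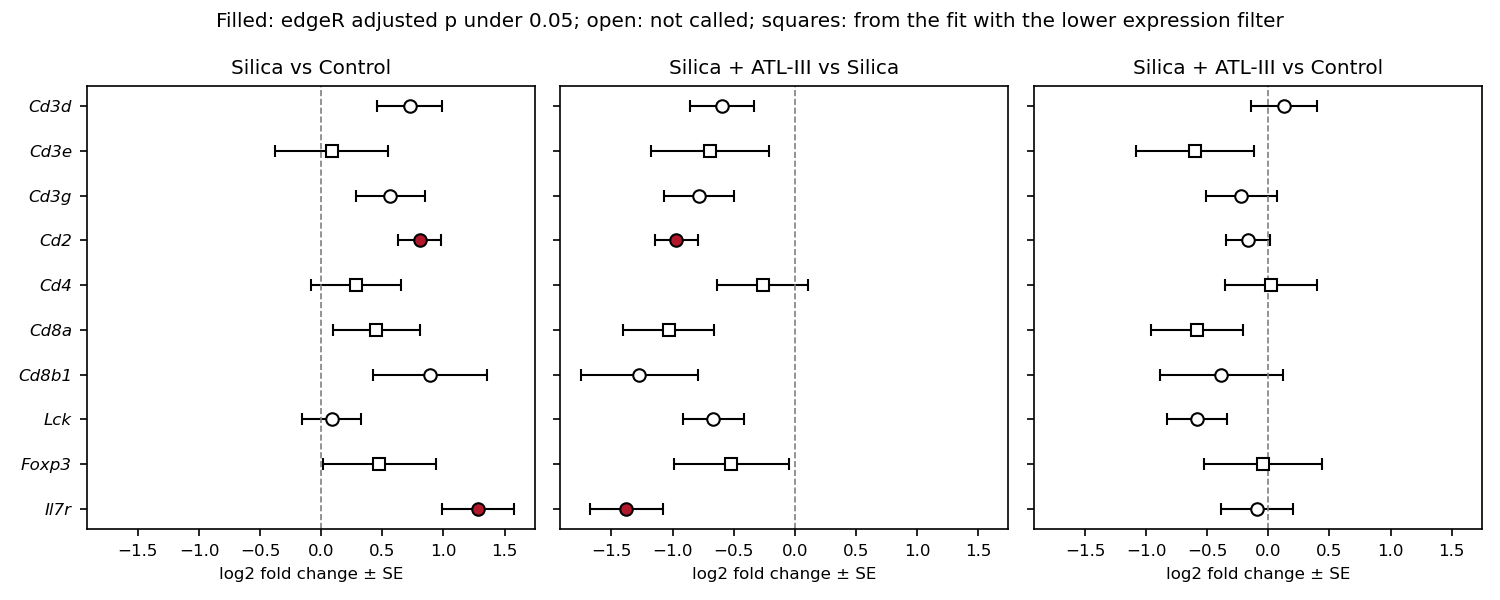
Log2 fold change ± SE of each gene (rows), one comparison per panel, from edgeR fits of 9 libraries; filled points passed an adjusted p of 0.05 and squares come from the fit with the lower filter. Cd2 and Il7r are the filled points, at 0.81 and 1.29 in the first panel and -0.97 and -1.38 in the second; no point is filled in the third.

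The libraries of a group did not agree equally well. Silica + ATL-III 2 was the lowest of all 9 libraries for 8 of the 10 genes, and Silica 2 was the highest, ties included, for 6. The mean of the 10 standardised log2 levels was -1.58 in Silica + ATL-III 2, against -0.06 and -0.18 in the other Silica + ATL-III libraries. It was 1.19 in Silica 2, against 0.58 and 0.56 in the other Silica libraries, and between -0.64 and 0.11 in Control lungs. Without Silica + ATL-III 2, the log2 fold change of Silica + ATL-III against Silica was -0.91 ± 0.20 for Cd2 (edgeR adjusted p = 0.0167) and -1.15 ± 0.30 for Il7r (0.0319), both still called. It was then -0.37 ± 0.25 for Cd3d (0.362), -0.51 ± 0.25 for Cd3g (0.203), -0.89 ± 0.46 for Cd8b1 (0.23) and -0.40 ± 0.19 for Lck (0.196). Without Silica 2, Cd8b1 had -0.67 ± 0.46 (0.307) in that comparison and 0.29 ± 0.45 (0.672) in Silica against Control.

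Across the 9 libraries the 10 genes moved partly together. Of their 45 pairs, 42 had a positive Pearson r of log2 levels, with a median of 0.66 and a range of -0.10 to 0.95 (n = 9 libraries, which share their groups and their depth). The highest was between the CD8 chains Cd8a and Cd8b1, at 0.95, and it was also 0.95 within groups. Cd3d and Cd3g had 0.91, and 0.92 within groups. Cd2 and Il7r had 0.76, but -0.04 within groups, so their likeness lay between the group means. Cd4, with 20 to 57 counts per library, followed no other member closely.

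**Figure D3:**
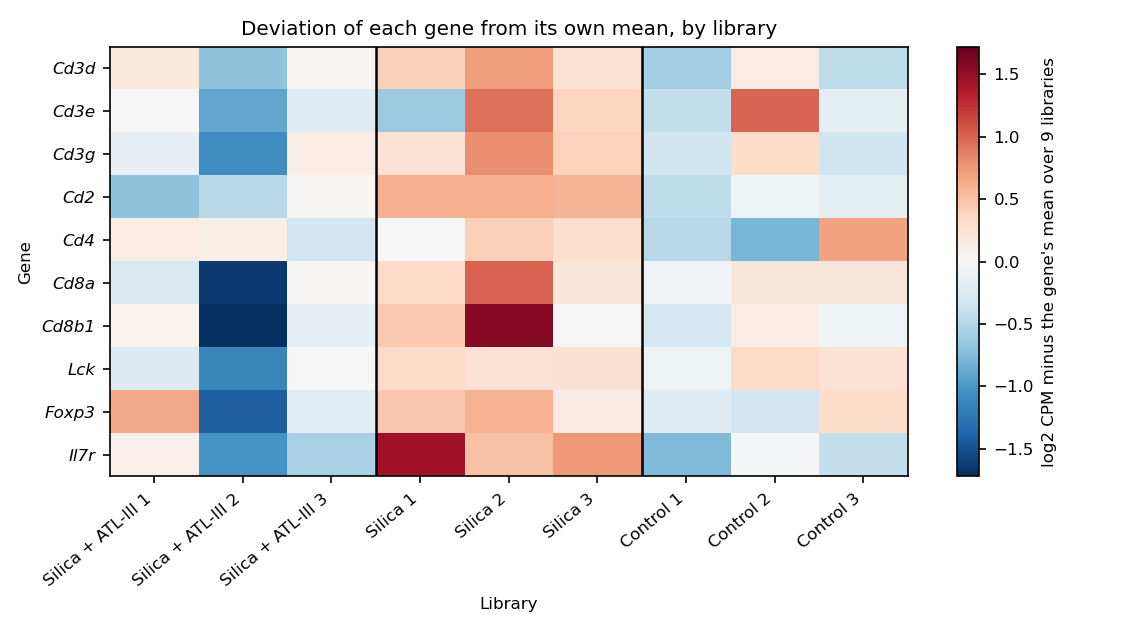
Log2 CPM of each gene minus that gene's mean over the 9 libraries, with red above and blue below the mean and lines between Silica + ATL-III, Silica and Control. Silica + ATL-III 2 is the bluest column in the CD3, CD8 and Lck rows, and Silica 2 is the reddest in the Cd3d, Cd3g, Cd8a and Cd8b1 rows; the Cd2 row is red in all 3 Silica columns.

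Ratios of genes within a library add a second view that does not depend on library scaling, unlike the CD3 sum used as their divisor. The summed CD3 level was 6.78, 3.60 and 6.73 FPKM in Silica + ATL-III lungs, 7.83, 11.81 and 8.36 FPKM in Silica lungs and 5.17, 8.88 and 5.58 FPKM in Control lungs. Lck was 0.297 to 0.348 of the CD3 sum in Silica + ATL-III lungs and 0.251 to 0.368 in Silica lungs. It was 0.372 to 0.559 in Control lungs, so both silica groups lay below Control, Silica by a narrow margin. Il7r was 0.698 to 1.12 times the CD3 sum in Silica + ATL-III lungs, 0.891 to 2.37 times in Silica lungs and 0.874 to 1.06 times in Control lungs, which overlap. Cd2 relative to the CD3 sum overlapped as well, at 0.665 to 1.46 in Silica + ATL-III lungs, 1.01 to 1.38 in Silica lungs and 0.871 to 1.28 in Control lungs. The ratios of Cd4, Cd8a, Cd8b1 and Foxp3 to the CD3 sum overlapped between all groups. None of these ratios was tested.

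The antigen-binding chains and the zeta chain complete the receptor. For this and the following gene lists, the shares of all genes tested that edgeR called are those given above. They were 16.9% in Silica against Control, 21.2% in Silica + ATL-III against Silica and 15.9% in Silica + ATL-III against Control. Of 8 genes for constant regions and Cd247, the zeta chain, 6 were tested, and 2 fell in Silica + ATL-III against Silica lungs, with a median log2 fold change of -0.90. Cd247 had 0.88, 0.38 and 0.83 FPKM in Silica + ATL-III lungs and 1.35, 1.44 and 1.34 FPKM in Silica lungs, a log2 fold change of -0.96 ± 0.27 (edgeR adjusted p = 0.0263). The beta constant gene Trbc2 had 10.29, 6.99 and 18.37 FPKM in Silica + ATL-III lungs and 23.92, 26.13 and 20.39 FPKM in Silica lungs, a log2 fold change of -0.96 ± 0.28 (0.032). For both genes the groups did not overlap. The alpha constant gene Trac had 2.10, 1.28 and 2.46 FPKM in Silica + ATL-III lungs and 1.23, 3.24 and 1.80 FPKM in Silica lungs, which overlap (-0.07 ± 0.43, 0.927). The count of 2 became 0 without Silica + ATL-III 2, Silica 1 or Silica 3, and 1 without Silica + ATL-III 1 or Silica 2.

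In Silica against Control lungs edgeR called 0 of these 6 genes, with 2 at an unadjusted p under 0.05 and 2 called by DESeq2. Trbc2 had a log2 fold change of 0.87 ± 0.28 (edgeR adjusted p = 0.0528) and Cd247 one of 0.82 ± 0.27 (0.0547). The count was 1 without Silica + ATL-III 1, and 2 without Silica + ATL-III 2 or Silica + ATL-III 3. In Silica + ATL-III against Control lungs, edgeR and DESeq2 called 0 of the 6, and 0 had an unadjusted p under 0.05. Reads in the 35 beta variable segments summed to 67, 33 and 116 counts in Silica + ATL-III lungs, 133, 161 and 95 in Silica lungs and 72, 125 and 90 in Control lungs, so the groups overlapped. Segments are similar in sequence, and no source used here states how the counting split shared reads.

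Signalling genes downstream of the receptor went both ways. Of 15 tested genes of proximal signalling, 3 were called higher and 1 lower in Silica against Control lungs. Of all genes tested, 9.11% were called higher and 7.81% lower there. Lcp2, the adaptor SLP-76, had 7.20, 6.06 and 5.74 FPKM in Silica lungs and 2.72, 3.73 and 2.31 FPKM in Control lungs (log2 fold change 1.22 ± 0.18, edgeR adjusted p = 0.00175). Vav1, a guanine nucleotide exchange factor of blood cells, rose by 0.88 ± 0.19 (0.0118), and Malt1, a paracaspase, by 0.92 ± 0.16 (0.00523). These 3 calls were kept in all 9 reduced fits, while that of the phospholipase gene Plcg1 (-0.41 ± 0.12, 0.0448) was kept only without Silica + ATL-III 3 or Silica 2, and the count called lower was 0 in the 7 others.

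Of these 15 genes, in Silica + ATL-III against Silica lungs, 1 was called higher and 3 lower, and the median was 0.02. Of all genes tested, 11.2% were called higher and 10% lower there. Fyb, the adaptor ADAP that is also expressed by myeloid cells, had 9.93, 8.69 and 10.98 FPKM in Silica + ATL-III lungs and 2.67, 4.16 and 2.74 FPKM in Silica lungs (log2 fold change 1.66 ± 0.27, edgeR adjusted p = 0.00171). Among those called lower, Malt1 fell by 0.71 ± 0.16 on the log2 scale (0.01) and Rasgrp1, a Ras activator, by 0.84 ± 0.23 (0.0253). The Malt1 call was kept in all 9 reduced fits, and the Rasgrp1 call was lost without Silica + ATL-III 1, Silica + ATL-III 2, Silica 2 or Silica 3. The count called higher was 2 without Control 2.

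Against Control lungs, Silica + ATL-III lungs had 4 of the 15 called higher and 0 lower, with a median of 0.12. Of all genes tested, 9.14% were called higher and 6.71% lower there. Fyb had a log2 fold change of 1.902 ± 0.274 (edgeR adjusted p = 0.000703), Vav1 1.32 ± 0.19 (0.000612), Lcp2 1.16 ± 0.18 (0.000994) and Bcl10, a partner of MALT1, 0.57 ± 0.13 (0.0123). Without Silica + ATL-III 3, 2 were called lower. The Bcl10 call was lost without Silica + ATL-III 2 or Control 3. Of 8 tested genes that restrain receptor signalling, 2 were called higher in Silica + ATL-III against Silica lungs, Dgka and Pag1, and 0 lower. With 1 library left out, 1 to 3 were called higher. In Silica against Control lungs Ubash3b was called higher and Dgka lower. Silica + ATL-III lungs had 2 called higher against Control, Ptpn6 and Pag1, but 0 without Silica + ATL-III 2, Control 1 or Control 3.

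Costimulatory and inhibitory surface genes changed in part. Of 11 tested, 3 were called higher and none lower in Silica against Control lungs (median 0.44). Tnfrsf9, the costimulatory receptor 4-1BB, had 4.35, 3.71 and 4.54 FPKM in Silica lungs and 0.49, 0.27 and 0.32 FPKM in Control lungs, a log2 fold change of 3.63 ± 0.44 (edgeR adjusted p = 0.000622). Havcr2, the inhibitory receptor TIM-3, rose by 1.03 ± 0.17 (0.00374), and Icos, a costimulatory receptor of activated T cells, by 0.92 ± 0.29 (0.0466). The Icos call was lost without Silica 1, Silica 3 or any of the Control libraries (adjusted p up to 0.153).

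Of the same 11 genes, 2 were called higher and 3 lower in Silica + ATL-III against Silica lungs (median -0.49). Tnfrsf9 had 2.48, 0.59 and 1.40 FPKM in Silica + ATL-III lungs and the Silica values given above, a log2 fold change of -1.48 ± 0.38 (edgeR adjusted p = 0.0168). Thy1, the pan-T glycoprotein CD90, fell by 0.86 ± 0.20 on the log2 scale (0.0106) and Btla, an inhibitory receptor of B and T cells, by 1.09 ± 0.26 (0.0128). Ptprc, the pan-leukocyte phosphatase CD45, rose by 0.90 ± 0.26 (0.0306). The Tnfrsf9 call was lost without Silica 1 or Silica 3, that of Btla without Silica + ATL-III 2, and that of Ptprc without Silica + ATL-III 3, Silica 1 or Silica 3. The count called higher was 0 without Silica 1 or Silica 3 and 1 without Control 2 or any of the Silica + ATL-III libraries.

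The IL-7 receptor alpha chain acts with partner chains, kinases and ligands. The list of 10 tested genes holds these and also downstream genes such as Stat5a, Stat5b, Bcl2 and Cish. Of the 10, edgeR called 0 in Silica against Control lungs, with 4 at an unadjusted p under 0.05. DESeq2 also called 0, and edgeR called 1 lower without Silica 2. Against Silica lungs, Silica + ATL-III lungs had 3 called higher and 1 lower. Jak3, the kinase of the common gamma chain, had 15.38, 15.34 and 10.94 FPKM in Silica + ATL-III lungs and 3.76, 7.26 and 5.45 FPKM in Silica lungs (log2 fold change 1.37 ± 0.20, edgeR adjusted p = 0.000932). Stat5b, the transcription factor that the receptor activates, rose by 0.47 ± 0.10 (0.00862). The ligand gene Il7 had 0.70, 0.70 and 0.72 FPKM in Silica + ATL-III lungs and 1.13, 1.23 and 1.19 FPKM in Silica lungs (-0.72 ± 0.18, 0.0167), a call that was lost without Silica + ATL-III 2 or Silica 3. Crlf2, which pairs with the IL-7 receptor alpha chain in the TSLP receptor, rose by 0.55 ± 0.18 (0.0483), and its call was kept in 1 of 9 reduced fits, the 1 without Silica 1.

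Ligands of CD2 and the co-receptors moved with Cd2 in part. Of 8 tested genes, 5 were called higher in Silica against Control lungs and 0 lower (median 0.76). Cd48, the CD2 ligand in mice, had 65.10, 57.07 and 54.60 FPKM in Silica lungs and 21.05, 29.98 and 22.22 FPKM in Control lungs, a log2 fold change of 1.37 ± 0.29 (edgeR adjusted p = 0.0109). The count was 3 without Silica 1, Silica 3, Control 1 or Control 2, and 2 without Control 3. In Silica + ATL-III against Silica lungs 4 of the 8 were called lower and 0 higher (median -0.55). Cd48 had 22.67, 17.18 and 45.01 FPKM in Silica + ATL-III lungs, a log2 fold change of -1.04 ± 0.28 against Silica (0.023), and the MHC class II gene H2-Ab1 had one of -1.06 ± 0.24 (0.0104). The Cd48 call was lost without Silica + ATL-III 1, Silica + ATL-III 2, Silica 1 or Silica 3, and the count was 1 without Silica + ATL-III 2 or Silica 1 and 2 without Silica 3.

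T lineage transcription factors had no call in Silica against Control lungs, with 0 of 12 called by edgeR or DESeq2 and 0 at an unadjusted p under 0.05 (1 called without Control 2). Tcf12, an E protein gene, fell in Silica + ATL-III against Silica lungs by 0.38 ± 0.10 on the log2 scale (edgeR adjusted p = 0.0171) in all 9 reduced fits. Zbtb7b, the CD4 lineage factor ThPOK, rose by 0.49 ± 0.15 (0.0416), a call kept in 2 of 9 reduced fits, those without Silica + ATL-III 1 or Silica 2. The count called lower was 2 without Silica + ATL-III 1. With the lower filter, 16 of these genes were tested, and 1 was called higher (Zbtb7b) and 3 lower (Tcf12, Bcl11b and Lef1). Bcl11b, a factor of T lineage commitment, had 0.16, 0.11 and 0.20 FPKM in Silica + ATL-III lungs and 0.38, 0.41 and 0.44 FPKM in Silica lungs (log2 fold change -1.36 ± 0.31, edgeR adjusted p = 0.00985). Lef1, a TCF family factor, had 0.26, 0.08 and 0.21 FPKM in Silica + ATL-III lungs and 0.53, 0.41 and 0.36 FPKM in Silica lungs (-1.22 ± 0.39, 0.0479). The groups did not overlap for either gene, and neither was refitted with a library left out.

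Among 10 tested effector, memory and helper genes, 4 were called higher in Silica against Control lungs, among them Cd44, Itgae and Bhlhe40. The Bhlhe40 call was lost without Silica 1, Silica 3 or any of the Control libraries. Itgae, the CD103 integrin of tissue-resident T cells and some dendritic cells, averaged 1.10 ± 0.17 FPKM in Silica + ATL-III lungs, 1.92 ± 0.17 FPKM in Silica lungs and 1.10 ± 0.09 FPKM in Control lungs. Its log2 fold change was 0.90 ± 0.17 in Silica against Control (edgeR adjusted p = 0.00788) and -0.78 ± 0.17 in Silica + ATL-III against Silica (0.00905), both in all 9 reduced fits. Against Silica lungs, Silica + ATL-III lungs had 4 of the 10 called lower (2 without Silica 3) and 1 higher.

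Markers of other cells also differed between groups, but not all in the direction of the T cell genes. Across libraries, Pearson r with the mean standardised level of the T cell receptor complex and T identity genes differed by list. It was 0.85 for cytotoxic and NK cell markers, 0.80 for B cell markers, 0.70 for dendritic cell markers and 0.66 for lymphoid stroma markers. Group 2 innate lymphoid markers had 0.39, macrophage and monocyte markers 0.21 and thymus markers 0.02. Neutrophil markers had -0.38 and lung cell markers -0.48. The part of these cells in the T cell results was not tested. B cell markers were called lower in 11 of 11 tested genes in Silica + ATL-III against Silica lungs (median log2 fold change -1.92), and 8 to 11 of them with 1 library left out. Their summed level was 9.0 to 23.2 FPKM in Silica + ATL-III lungs, 45.2 to 78.5 FPKM in Silica lungs and 34.7 to 80.0 FPKM in Control lungs. In Silica against Control lungs edgeR and DESeq2 called 0 of the 11, and 0 had an unadjusted p under 0.05. Neutrophil markers were called higher in 11 of 12 genes in Silica + ATL-III against Silica lungs, in each of the 9 reduced fits as well. Their summed level was 30116 to 45437 FPKM in Silica + ATL-III lungs, 749 to 4517 FPKM in Silica lungs and 556 to 3888 FPKM in Control lungs. Macrophage and monocyte markers were called higher in 9 of 14 genes in Silica against Control lungs (8 to 11 with 1 library left out), and their summed level was 9362 to 12824 FPKM in Silica + ATL-III lungs, 14366 to 15883 FPKM in Silica lungs and 7251 to 9332 FPKM in Control lungs. Lyz2 held most of the list's counts in every library. Of the same 14 genes, 3 were called higher and 3 lower in Silica + ATL-III against Silica lungs (median -0.27). Leaving out 1 library gave 1 to 3 higher and 1 to 4 lower.

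NK and cytotoxic markers overlap with T cells in what they express, Cd2 included. Of 13 tested genes, 2 were called higher in Silica against Control lungs, Klrg1 and the Fc receptor gene Fcgr3, which myeloid cells also express, and 0 lower. The summed level of the list's 15 genes was 171 to 262 FPKM in Silica + ATL-III lungs, 155 to 160 FPKM in Silica lungs and 82.1 to 110.1 FPKM in Control lungs. Fcgr3, singled out after its values were seen, made up 126 to 145 FPKM of it in Silica + ATL-III lungs, 55.9 to 68.7 FPKM in Silica lungs and 21.9 to 32.2 FPKM in Control lungs. The other 14 genes summed to 71.4, 42.2 and 117 FPKM in Silica + ATL-III lungs, 90.7, 104 and 86.7 FPKM in Silica lungs and 75.2, 78.0 and 60.1 FPKM in Control lungs. In Silica + ATL-III against Silica lungs the median log2 fold change of the 13 tested genes was -0.51, and 3 of them had a positive value. Fcgr3 was called higher there, and 1 gene lower, Klrd1, with -0.79 ± 0.21 (edgeR adjusted p = 0.0221). The count called lower was 7 without Silica + ATL-III 3 and 0 without Silica 1. Among 8 tested markers of group 2 innate lymphoid cells, which also carry the IL-7 receptor, 1 was called higher in Silica against Control lungs, Klrg1, which both lists hold, with 1.96 ± 0.39 (0.00883), and 2 without Silica 2. Of 12 thymus markers, 6 (Rag2, Ptcra, Foxn1, Psmb11, Aire and Arpp21) were under 0.1 FPKM in every library, and the summed level of the 12 was 6.89 to 9.64 FPKM in Silica + ATL-III lungs, 8.00 to 10.63 FPKM in Silica lungs and 9.06 to 11.26 FPKM in Control lungs.

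**Figure D4:**
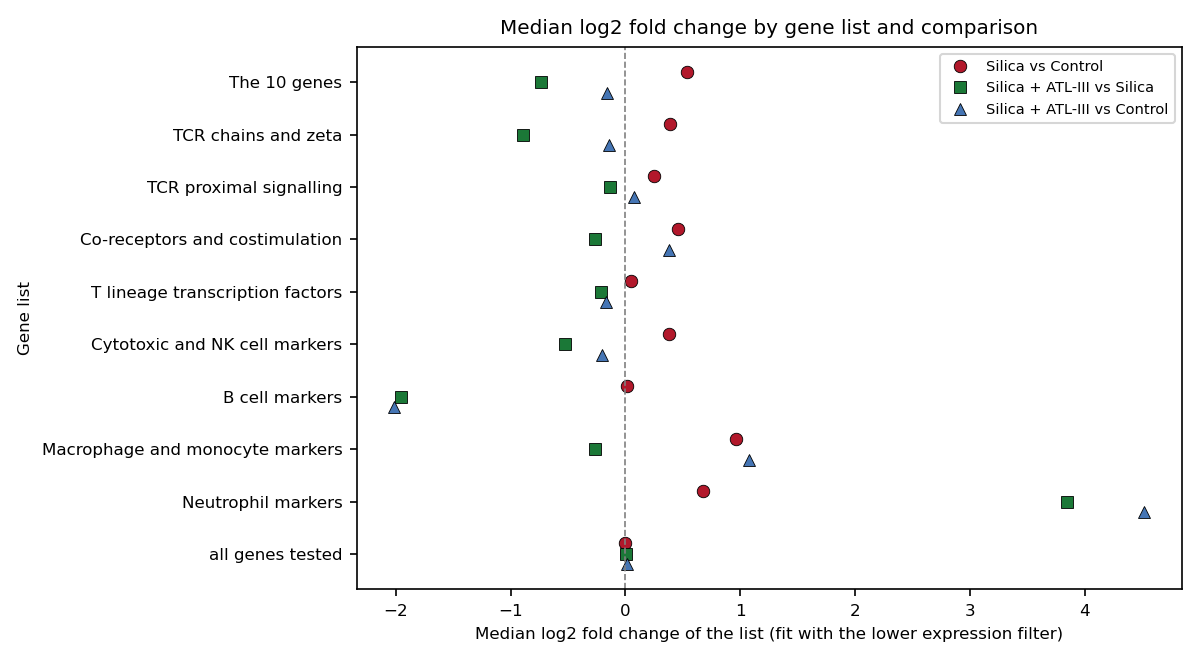
Median log2 fold change (x axis) of the 10 genes, of 8 other gene lists and of all genes tested, for the 3 comparisons, from the fit with the lower filter. The medians of the 10 genes are 0.53, -0.74 and -0.16 in the order of the legend; the B cell list is low and the neutrophil list high in both comparisons with Silica + ATL-III.

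The genes whose log2 levels were most like the mean of the 10, by Pearson r over 9 libraries, were Ofd1 (0.98), Gpr183 (0.95), Trub2 (0.95), Tsacc (0.94), Snhg4 (0.94), Gm26717 (0.94), Igkv5-48 (0.93), Mcts2 (0.92), Gm16230 (0.92) and Tipin (0.92). The libraries share their groups and depth. The ranking covers tested genes with a symbol and a mean of at least 1 FPKM. It leaves out the 10 genes and every gene of the other lists, so the T cell genes of those lists were not ranked.

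Genes of naive, regulatory and recruited T cells were listed as well, and not every list is described here. Of 9 tested naive and recirculating genes, edgeR called 0 in Silica against Control lungs, with 1 at an unadjusted p under 0.05 and 1 called by DESeq2, and edgeR called 1 without Silica + ATL-III 1 or Silica + ATL-III 2. Ccr7, the lymph node homing receptor, averaged 3.10 ± 1.47 FPKM in Silica + ATL-III lungs and 6.22 ± 1.80 FPKM in Silica lungs (log2 fold change -0.97 ± 0.32, edgeR adjusted p = 0.0492), a call kept in 2 of 9 reduced fits, those without Silica + ATL-III 1 or Silica 1.

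Among 8 tested genes linked to regulatory T cells, Entpd1, the ectonucleotidase CD39, averaged 30.3 ± 6.6 FPKM in Silica + ATL-III lungs and 14.6 ± 0.9 FPKM in Silica lungs (log2 fold change 1.08 ± 0.14, edgeR adjusted p = 0.000413). Nrp1, neuropilin 1, averaged 7.25 ± 1.22 FPKM in Silica + ATL-III lungs and 10.8 ± 1.5 FPKM in Silica lungs (-0.55 ± 0.14, 0.0137), a call lost without Silica 3. Neither gene is particular to T cells. Of 7 tested T cell attracting chemokines, 4 were called higher in Silica against Control lungs and 3 lower in Silica + ATL-III against Silica lungs. Ccl22, a ligand of CCR4, averaged 5.86 ± 0.70 FPKM in Silica lungs and 2.23 ± 0.31 FPKM in Control lungs (1.49 ± 0.27, 0.00612), in all 9 reduced fits. Cxcl12, the CXCR4 ligand, averaged 4.44 ± 0.72 FPKM in Silica + ATL-III lungs and 12.7 ± 4.7 FPKM in Silica lungs (-1.50 ± 0.24, 0.00155), also in all 9. The chemokine count was 2 without Silica 1, Control 2 or Control 3 in the first of these comparisons, and 1 without Silica + ATL-III 3 or Silica 3 in the other.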

How the data were processed

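Poly(A) RNA of mouse lung was sequenced in 9 libraries, 3 per group. Per the submitters' processing notes, the tools include HISAT2 2.0.1, HTSeq 0.6.1 and cutadapt 1.9.1, and the build is mm10; no source used here states strand handling or annotation release. Per the file headers, raw counts per gene were deposited beside FPKM from the authors. FPKM recomputed from counts, exonic length and column totals matched within 0.005, so they carry no other scaling. Of the gene identifiers, 1438 have no symbol. The table's positions did not match GENCODE M21 (1499 of 52083 starts), so coordinates come from RefSeq (GRCm38.p6) only.

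Counts of all 9 libraries entered 1 edgeR quasi-likelihood fit (edgeR 4.0.16, R 4.3.3, TMM, 3 group means, 6 residual degrees of freedom). The filter of the report left 15459 genes, or 18268 with edgeR's filterByExpr as the lower filter. Calls are Benjamini-Hochberg adjusted p under 0.05, and SE is the log2 fold change over the square root of F. Alternatives used DESeq2 1.42.0 and limma 3.58.1 on log2(FPKM + 0.5), other scalings and filters, a replicate block and leaving out each library. The code was checked on simulated counts.

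Exon overlaps come from GENCODE M21. Named list genes are up to 4 per list with the smallest p among those called, or else the gene with the smallest p; not all are printed, and some called genes are not reported here. The 10 genes and the 21 other lists were chosen with earlier results of these data known. No pair of libraries within a group was alike within counting error (lowest chi-square over degrees of freedom 6.44), and the labels give no batch.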

Additional observations from a re-analysis of the deposited data

How the results depend on the processing

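Cd2 and Il7r were called in Silica against Control and in Silica + ATL-III against Silica under every scaling, filter, tool and the replicate block, though not with every library left out in Silica against Control. The number of the 10 genes called in Silica against Control was 4 with no filter (11.34% of all genes called) and 0 to 2 with 1 library left out. In Silica + ATL-III against Silica it was 4 with FPKM rescaled to TPM (25.18% of all genes), 6 with no filter (12.95%), 5 with DESeq2 (24.47%) and 2 to 4 with 1 library left out, and in Silica + ATL-III against Control 2 with TPM (Lck and Cd2; 39.58%). Genes called over the whole table numbered 4177 and 6118 with TPM in Silica and in Silica + ATL-III against Control, where 2615 and 2451 were called with TMM. With 1 library left out they numbered 862 to 3944 in Silica against Control, 1924 to 3877 in Silica + ATL-III against Silica and 1474 to 2864 in Silica + ATL-III against Control.

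The share of calls that were higher moved with the scaling, and with limma, which changes test and scaling together. It was 53.8% in Silica against Control, against 33.0% with library totals, 17.4% with TPM and 33.6% with limma. It was 52.6% in Silica + ATL-III against Silica, against 46.0%, 29.8% and 45.3% in that order, and 57.6% in Silica + ATL-III against Control, against 34.6%, 12.7% and 35.2%. TPM shifted the median of all genes by -0.19, -0.12 and -0.30 in these comparisons, and library totals by -0.10, -0.02 and -0.12.

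Of the 18 log2 fold changes of the 6 tested genes, 5 changed sign in 1 or more settings (16 values in all), none of them called. Lck in Silica against Control was -0.0165 with library totals, -0.1065 with TPM, -0.0065, -0.006 and -0.0067 with limma at pseudocounts of 0.5, 0.1 and 1, and -0.0322 to 0.1656 with 1 library left out. In Silica + ATL-III against Control, Cd3d was -0.1815 with TPM, -0.0002 and -0.0022 with limma at 0.5 and 0.1, and -0.0353 to 0.3761 with 1 library left out. There Cd3g ran from -0.454 to 0.0573, Cd8b1 from -0.6954 to 0.0011 and Il7r from -0.4339 to 0.136 with 1 library left out. The cause was not tested.

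Of 9 same-numbered pairs of libraries, 1 had correlated deviations over 0.1 (-0.0968 to 0.1081). Deviations of 3 libraries per group cannot show whether replicate numbers pair the libraries. With the replicate block 2, 2 and 0 of the 10 genes were called and 2120, 2822 and 2109 genes in all. Counts were lowest for Foxp3 (39 to 60 counts per group), Cd3e (62 to 108), Cd4 (95 to 122) and Cd8b1 (60 to 155).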
